A study of Mus musculus with 663 samples.

Results

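The genes described here encode 10 proteins of steroid hormone synthesis: Star, Cyp11a1, Fdx1, Fdxr, Hsd3b1, Hsd3b6, Cyp17a1, Hsd17b1, Cyp19a1 and Srd5a1. They were chosen by name, as the transport protein, enzymes and electron carriers of the pathway, and all 10 were found among the 43320 usable gene names of the expression table. The choice was made with earlier results of these data known, so shares of called genes among the 10 are descriptions only. Their levels were followed in 662 single cells from XX mouse gonads of 6 ages, the embryonic days E10.5, E11.5, E12.5, E13.5 and E16.5 and postnatal day 6 (P6). All cells carried an eGFP reporter of Nr5a1, a transcription factor gene of steroid-making and gonadal somatic cells, on a mixed strain background, and were sorted as living eGFP-positive cells. No group was treated, and cells without reporter signal were not sampled. The cells were caught on C1 microfluidic chips in 12 captures, with 71 cells in 1 capture at E10.5, 106 cells in 2 captures at E11.5, 53, 53 and 57 cells in the 3 captures of E12.5, 106 cells in 2 captures of E13.5, 95 cells in 2 captures of E16.5 and 121 cells in the 2 captures of P6.

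Steroid hormones are built from cholesterol in a fixed order of steps. Star brings cholesterol to the inner mitochondrial membrane, where Cyp11a1 cuts its side chain with electrons passed on by Fdxr and Fdx1. Enzymes of the Hsd3b family then make progesterone, Cyp17a1 leads on to androgens, Cyp19a1 (aromatase) turns androgens into estrogens, Hsd17b1 turns estrone into the stronger estradiol, and Srd5a1 reduces testosterone to dihydrotestosterone. In the adult ovary the work is shared, since theca cells in the stroma make androgens and the granulosa cells that line the follicle turn them into estrogens.

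The 250 bases before a listed transcription start are shown for 4 of these genes. Hsd3b1 and Hsd3b6 are neighbours on chromosome 3 that encode like enzymes, Cyp11a1 was found mainly at E11.5 and E12.5, and Cyp19a1 was found at P6. The sequences are those of RefSeq for build GRCm38.p6, read 5′ to 3′ on the strand of the gene, and the start lies just after the last base.
Hsd3b1, chr3:98859795-98860044, minus strand: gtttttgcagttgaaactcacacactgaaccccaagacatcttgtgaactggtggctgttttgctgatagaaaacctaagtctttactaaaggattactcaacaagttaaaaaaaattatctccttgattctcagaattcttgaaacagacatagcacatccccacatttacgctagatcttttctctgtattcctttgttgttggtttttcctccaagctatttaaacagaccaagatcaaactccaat
Hsd3b6, chr3:98814444-98814693, minus strand: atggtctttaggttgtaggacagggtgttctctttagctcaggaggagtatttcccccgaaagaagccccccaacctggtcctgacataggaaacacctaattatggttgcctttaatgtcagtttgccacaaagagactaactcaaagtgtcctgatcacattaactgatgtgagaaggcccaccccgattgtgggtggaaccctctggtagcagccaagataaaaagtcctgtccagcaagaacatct
Cyp11a1, chr9:58014702-58014951, plus strand: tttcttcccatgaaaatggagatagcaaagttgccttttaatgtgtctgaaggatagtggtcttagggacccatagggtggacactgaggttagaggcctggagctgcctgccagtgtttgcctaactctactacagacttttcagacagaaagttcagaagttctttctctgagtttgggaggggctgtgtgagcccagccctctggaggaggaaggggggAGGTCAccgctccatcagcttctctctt
Cyp19a1, chr9:54268165-54268414, minus strand: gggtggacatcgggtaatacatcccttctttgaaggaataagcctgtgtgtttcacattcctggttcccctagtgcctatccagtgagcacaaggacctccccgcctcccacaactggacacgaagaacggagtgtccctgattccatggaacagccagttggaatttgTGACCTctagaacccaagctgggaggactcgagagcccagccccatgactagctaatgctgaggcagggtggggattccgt
Capitals mark the letters AGGTCA, a half-site of nuclear receptors, or the reverse complement of these letters. The motif was searched on both strands and stood 28 bases before the Cyp11a1 start, and its reverse complement stood 81 bases before the Cyp19a1 start. Cyp11a1 has 2 listed starts and Cyp19a1 has 3, and the other starts of both genes lacked the motif. The start shown for each of these genes is thus the one with the motif, and which start the cells used was not tested. Of the 10 windows listed for these genes, 2 held it, against 14.02% of all 32851 listed windows of this length. The core promoter motif TATAAA, searched on both strands, was in 2 of the 10 windows, both of them further Cyp19a1 starts, against 12.4% of all windows. A match describes these letters only. The table held windows for 7 of the 10 genes, while Star, Cyp17a1 and Hsd17b1 are named here without a sequence.

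Values are read counts scaled by gene length and by sequencing depth (RPKM), so levels can be compared between genes. A cell is said to express a gene at 1 RPKM or more, and the level of a capture is the mean over its cells, which mixes how many cells express a gene with how much each holds. The median depth per cell was estimated at between 1890770 and 3203550 reads in 11 captures. The second E12.5 capture stood apart, with a median of 147582 reads and Y-linked transcripts in 40 of its 53 cells (75.5%, exact 95% interval 61.7 to 86.2%), against 1 cell in the first E12.5 capture and 0 cells elsewhere. It therefore goes against its label of XX gonad. The E12.5 means of Star, Cyp11a1 and Hsd3b1 are given with and without it, while other E12.5 values, cell counts and the fits include it unless stated. In that capture, 1 RPKM of Hsd3b1 equalled about 0.274 of a read in a cell of median depth, against 4.74 and 3.51 reads in the P6 captures. Nr5a1 itself was expressed in 40 of 71 cells at E10.5 and in 99 of 121 cells at P6, and not in all sorted cells at any age. Marker genes of the labelled tissue were present, with 14 granulosa markers summing to between 279 and 1211 RPKM per capture before P6 and to 3484 and 1893 RPKM at P6, and 14 stroma markers to between 279 and 2992 RPKM. Markers of surface epithelium summed to 80.3 to 399 RPKM, of mesonephros to 3.37 to 90.2 RPKM, of Sertoli cells to 10.7 to 117.7 RPKM, of germ cells to 0.84 to 21 RPKM and of blood, endothelium and macrophages to 1.96 to 14.8 RPKM. Whether the captures of an age hold embryos or pups of different litters is not in the labels, so each p-value rests on spread among captures alone, and that spread may be technical.

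**Figure D1:**
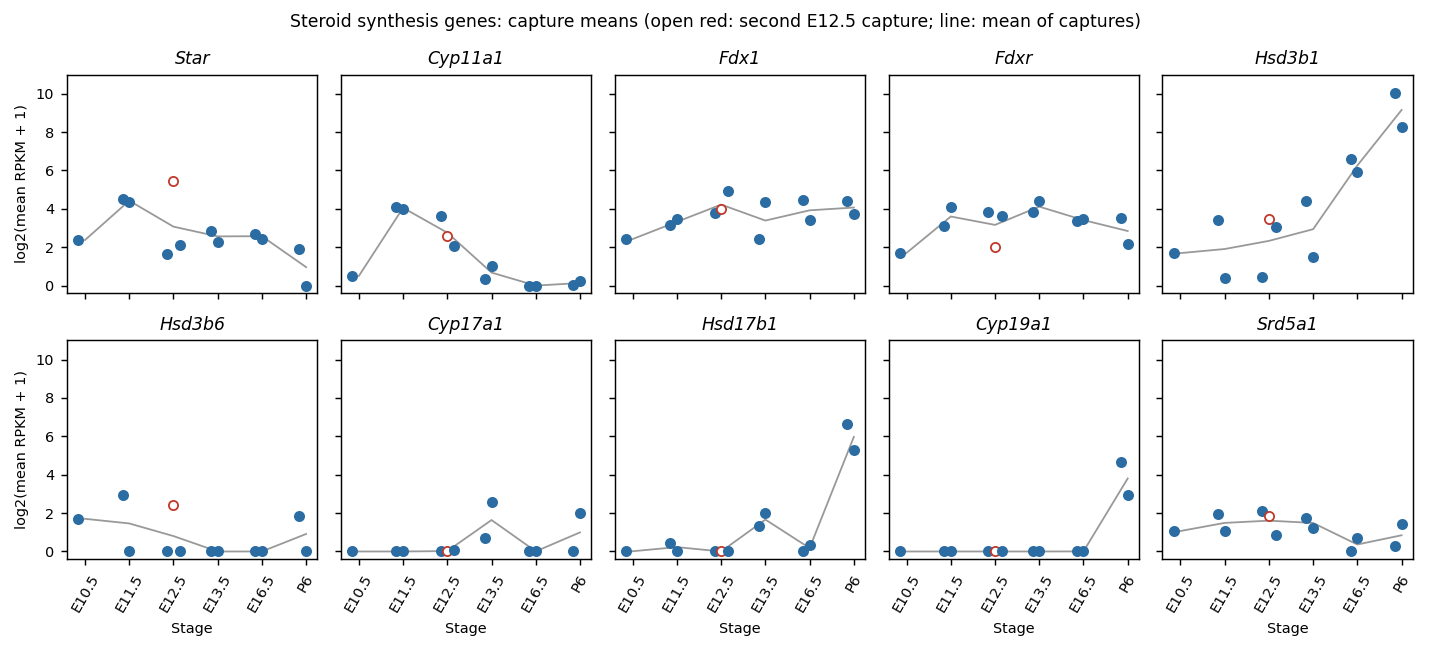
Capture means of the 10 genes by age, as log2(mean RPKM + 1); each point is 1 capture, the line joins the means of captures and the open red point is the second E12.5 capture. Star and Cyp11a1 are high at E11.5, and Hsd3b1 reaches 1059.9 and 304 RPKM at P6. Cyp19a1 is near 0 until P6, as is Hsd17b1 apart from E13.5 (1.52 and 2.98 RPKM).

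The entry steps were found early. Star (chr8:25806555-25815982, plus strand, coordinates of GRCm38 from GENCODE vM21 here and below) had a mean of 4.19 RPKM in the E10.5 capture and of 21.9 and 19.2 RPKM in the E11.5 captures. The E12.5 captures had 2.14, 43.1 and 3.31 RPKM of it, followed by 6.28 and 3.82 RPKM in those of E13.5, 5.52 and 4.45 RPKM in those of E16.5, and 2.81 and 0 RPKM in those of P6. The E11.5 captures were both above every other capture except the second E12.5 capture, and E10.5, E13.5 and E16.5 lay within 3.82 to 6.28 RPKM and were not separated. The E12.5 mean was 16.2 ± 23.3 RPKM (SD, n = 3 captures), and 2.73 ± 0.83 RPKM (n = 2) without the second capture. Star was expressed in 11 of 53 cells in each E11.5 capture (20.8%, exact 95% interval 10.8 to 34.1%) and in 4 of 121 cells at P6. In those E11.5 cells it ranged from 7.84 to 174 RPKM with a median of 118.4 RPKM in the first capture, and from 6.16 to 172 RPKM with a median of 89.9 RPKM in the second.

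Cyp11a1 (chr9:58006411-58027023, plus strand), the enzyme of side-chain cleavage, had 0.42 RPKM at E10.5, 16.3 and 14.97 RPKM at E11.5, and 11.2, 5.01 and 3.20 RPKM at E12.5. It then had 0.27 and 1.02 RPKM at E13.5, under 0.01 RPKM in both E16.5 captures and 0.026 and 0.18 RPKM at P6. The order was E11.5, then E12.5, then the rest, with no overlap between the captures of these 3 groups. The E12.5 mean was 6.49 ± 4.22 RPKM (SD, n = 3), and 7.23 ± 5.69 RPKM (n = 2) without the second capture. It was expressed in 8 and 10 cells of the E11.5 captures and in 4, 9 and 3 cells of the E12.5 captures. At E16.5 it was expressed in 0 of 95 cells, which allows a share of up to 3.16%, and at P6 in 2 of 121 cells, at 1.23 and 11.8 RPKM. A non-coding gene, Gm17322, overlaps the span of Cyp11a1 on the same strand over 1041 bases with introns counted. Overlap of exons was not measured, so the assignment of reads there is uncertain.

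At E11.5 the cells that expressed these genes were described by what else they held. The 18 Cyp11a1 cells expressed Nr5a1 in 18 cases, against 54 of the 88 other cells, and Inha, the inhibin alpha chain, in 13 cases against 27 of 88. They also expressed the electron carrier genes Fdxr in 14 cases against 16 of 88 and Fdx1 in 10 cases against 23 of 88. Their median number of detected genes was 7111.5 against 6667 in the others, and its part in these shares was not tested. Both Star and Cyp11a1 were expressed in 4 and 3 cells of the E11.5 captures, that is in 7 of the 22 Star cells and 7 of the 18 Cyp11a1 cells. The same pair was in 1 cell at E10.5, in 3 cells of the second E12.5 capture, in 0 cells of the other E12.5 captures, in 1 cell at E13.5 and in 0 cells later.

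Mc2r encodes the receptor for corticotropin and is a marker of the adrenal cortex. It was not rare in the sorted cells, with expression in 30 of 71 cells at E10.5 and 23 of 106 at E11.5. It was expressed in 10 of the 22 Star cells at E11.5, against 13 of the other 84, and in 7 of the 18 Cyp11a1 cells, against 16 of the other 88. The summed level of the 14 granulosa markers was higher in these cells too, with a median of 496 RPKM in the Star cells against 244 in the others. In the Cyp11a1 cells that sum was 968 RPKM against 269. The median number of the 14 markers expressed was 4 against 3 for Star cells and 5.5 against 3 for Cyp11a1 cells. The markers were not compared one by one at this age. In the 7 cells with both Star and Cyp11a1, Mc2r had 247, 254, 0 and 0 RPKM in the first capture and 1161, 1533 and 466 RPKM in the second. The 8 adrenal cortex markers (Mc2r, Mrap, Cyp21a1, Cyp11b1, Cyp11b2, Akr1b7, Nr0b1 and Hoxb9) summed to 61.9 and 129.2 RPKM in the E11.5 captures and to between 9.24 and 60.9 RPKM in the others, and 4 of the 8 reached 1 RPKM at E11.5. Mc2r alone had a mean of 75.4 RPKM over the E11.5 captures. Of the enzymes that define corticosteroid synthesis, Cyp21a1 and Cyp11b2 were listed at 0 in every capture and Cyp11b1 in 11 of 12, with no cell at 1 RPKM.

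The electron carriers were found at every age. Fdx1 (ferredoxin, chr9:51943306-51963556, minus strand) had between 4.39 RPKM at E10.5 and 29.2 RPKM in the third E12.5 capture, and was expressed in 19.7 to 41.8% of the cells of each capture. Fdxr (its reductase, chr11:115268024-115277050, minus strand) had between 2.27 RPKM at E10.5 and 20.3 RPKM in the second E13.5 capture, and was expressed in 11.3 to 35.8% of cells. Captures of 1 age also differed widely, for example Fdx1 with 4.43 and 19.3 RPKM at E13.5 and Fdxr with 10.3 and 3.58 RPKM at P6. Both were present at E16.5, where Cyp11a1 was under 0.01 RPKM, with 20.9 and 9.52 RPKM of Fdx1 and 9.19 and 10.2 RPKM of Fdxr.

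**Figure D2:**
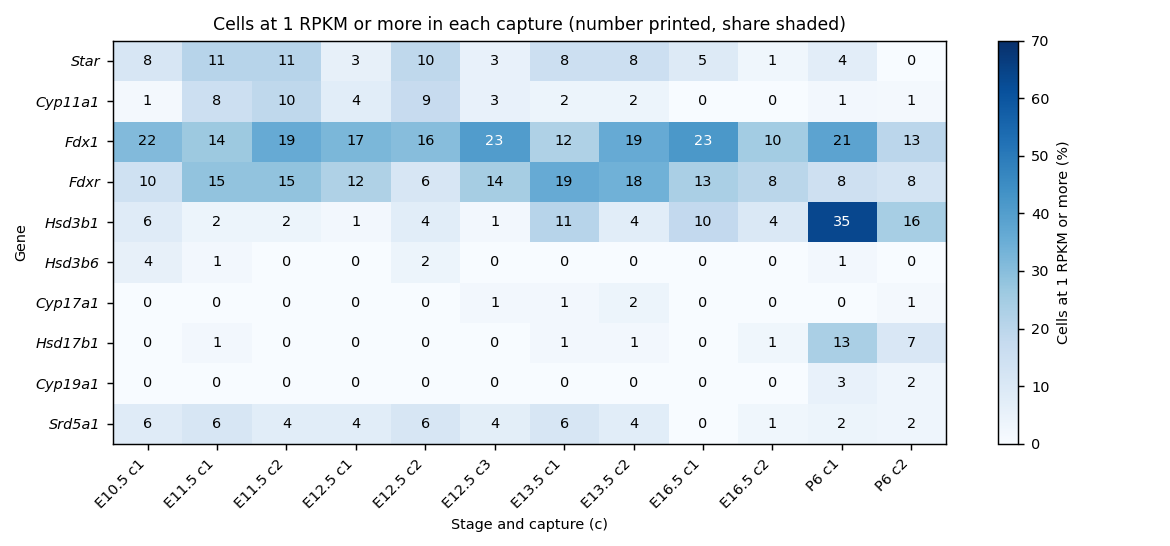
Number of cells at 1 RPKM or more for each gene (rows) in each capture (columns), with the shade giving the share of the cells of that capture. Fdx1 and Fdxr are spread over all captures, Star and Cyp11a1 lie mostly between E10.5 and E13.5, and Hsd3b1 reaches 35 of 55 and 16 of 66 cells at P6.

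Of the 2 genes for the progesterone step, Hsd3b1 (chr3:98852194-98859794, minus strand) carried almost all of the signal from E13.5 on. Its capture means were 2.24 RPKM at E10.5, 9.64 and 0.33 RPKM at E11.5, 0.38, 10.0 and 7.40 RPKM at E12.5, and 20.3 and 1.77 RPKM at E13.5. They were 95.4 and 59.96 RPKM at E16.5 and 1059.9 and 304 RPKM at P6. All captures up to E13.5 overlapped, both E16.5 captures lay above them, and both P6 captures lay above E16.5. The E12.5 mean was 5.92 ± 4.97 RPKM (SD, n = 3), and 3.89 ± 4.96 RPKM (n = 2) without the second capture.

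The share of cells with Hsd3b1 and its level in them can be told apart in single cells. It was expressed in 11 and 4 cells of the E13.5 captures, 10 and 4 cells of the E16.5 captures, and 35 of 55 and 16 of 66 cells of the P6 captures. Among expressing cells the median was 58.7 and 6.28 RPKM in the E13.5 captures, 312 and 318 RPKM in the E16.5 captures, and 329 and 629 RPKM in the P6 captures. The mean share over captures was 14.2 ± 9.34% of cells for E13.5, 14.1 ± 5.79% for E16.5 and 43.9 ± 27.9% for P6 (SD, n = 2 each). At P6 the highest cell reached 13218 RPKM and 4094 RPKM in the 2 captures, and the lowest expressing cell 2.53 and 1.25 RPKM. The intervals of the P6 shares did not overlap, with 63.6% (exact 95% interval 49.6 to 76.2%) in the first capture and 24.2% (14.5 to 36.4%) in the second.

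Hsd3b6 (chr3:98805504-98814443, minus strand), known from Leydig and adrenal cells, was expressed in 8 cells in all. Of these, 4 were at E10.5, 1 at E11.5, 2 in the second E12.5 capture and 1 at P6. The Hsd3b6 mean was 2.25 RPKM at E10.5, level with the 2.24 RPKM of Hsd3b1. It was 6.58 RPKM in the first E11.5 capture, 4.31 RPKM in the second E12.5 capture, 2.54 RPKM in the first P6 capture and 0 in the rest. Hsd3b1 was expressed in 4 of the 8, with Hsd3b6 against Hsd3b1 at 108.3 and 45.3 RPKM at E10.5, 348 and 376 RPKM at E11.5, 39.9 and 24.8 RPKM at E12.5, and 140 and 1288 RPKM at P6. The coding sequences of both genes are 90.02% identical over 1122 bases, and those of Hsd3b2 and Hsd3b3 are 89.3% identical to Hsd3b1, but 0 of the 1756 windows of 100 bases in Hsd3b1 recur exactly in Hsd3b6. How the counting treated reads that match more than 1 of these genes is not given in the sources used here, so the split between them is uncertain. In the other 4 Hsd3b6 cells Hsd3b1 was at 0.

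The androgen step was rare. Cyp17a1 (chr19:46667165-46673172, minus strand) was expressed in 5 of 662 cells, 1 in the third E12.5 capture at 2.31 RPKM, 1 in the first E13.5 capture at 32.3 RPKM, 2 in the second E13.5 capture at 238 and 24.5 RPKM, and 1 in the second P6 capture at 196 RPKM. The E12.5 cell also had Cyp11a1 at 138.96 RPKM, and 1 E13.5 cell had Star at 5.25 RPKM. The P6 cell expressed none of Star, Cyp11a1, Hsd3b1, Hsd17b1 or Cyp19a1, and Inha and Nr2f2 were at 0 in it. At E10.5, E11.5 and E16.5 no cell expressed Cyp17a1, which allows shares of up to 4.23%, 2.83% and 3.16%. Srd5a1 (chr13:69573449-69611442, minus strand) was low throughout, between 0 and 3.30 RPKM per capture, and was expressed in 45 of 662 cells. Srd5a1 lies wholly within the span of Nsun2 on the opposite strand, an overlap of 37994 bases with introns counted. Gm17108 overlaps its span over 945 bases on the same strand. Overlap of exons was not measured, and the use of strand in counting is not given in the sources used here. How well Srd5a1 reads can be told apart from those of Nsun2 and Gm17108 is therefore uncertain.

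The estrogen steps appeared last. Hsd17b1 (chr11:101078411-101080527, plus strand) had at most 0.36 RPKM in the captures up to E12.5, 1.52 and 2.98 RPKM at E13.5, each from 1 cell, 0 and 0.28 RPKM at E16.5, and 100.4 and 37.6 RPKM at P6. It was expressed in 13 and 7 cells of the P6 captures, at a median of 435 and 205 RPKM. Both P6 captures lay above all others, and both E13.5 captures lay above every other capture before P6. Cyp19a1 (chr9:54165937-54268110, minus strand) was listed at 0 in 9 of the 10 captures before P6, had 0.0056 RPKM in the second E16.5 capture, and had 24.7 and 6.59 RPKM at P6. Those P6 means came from 3 cells at 919, 362 and 76.4 RPKM and from 2 cells at 432 and 3.19 RPKM.

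In a fit of all 12 captures with limma (log2 of the capture mean plus 1 RPKM, with the sequencing series as a covariate), 271 of 19710 genes tested differed over the 6 ages (1.37%) at an adjusted p under 0.05. Of the steroid synthesis genes, 1 of 10 did, which was Hsd17b1 (limma, adjusted p = 0.0279). Its call ended without the E10.5 capture (adjusted p = 0.0538 in limma) and without the first E16.5 capture (0.0643). It also ended with a pseudocount of 0.1 RPKM (0.0536), with means of log2 values over cells (0.148) and with a filter met in at least 2 captures (0.0531). Cyp11a1 did not pass (limma, adjusted p = 0.0721) but passed when the first E12.5 capture (0.0252) or the second (0.0386) was left out. It also passed with no filter (0.0450), with means of log2 values (0.0272) and with no series term (0.0405). Cyp19a1 did not pass (limma, adjusted p = 0.0883), and it reached the filter of 1 RPKM only through the P6 captures, where it was high. Cyp19a1 passed with a pseudocount of 0.1 RPKM (0.0419), after rescaling (0.0266) and with no series term (0.0276). Hsd3b1 did not pass (limma, adjusted p = 0.622), and the other 6 genes had adjusted p-values from 0.731 to 0.879. The fit included the second E12.5 capture, and without that capture limma called 618 of 19384 genes (3.19%) over the ages.

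E13.5 was compared with E11.5, since both ages were sequenced in 1 series. Cyp11a1 was lower at E13.5 in both captures than in either E11.5 capture, by -3.38 ± 0.52 on the log2 scale (SE), and did not pass the test over all genes (limma, adjusted p = 0.192). Star differed by -1.86 ± 1.20 (limma, adjusted p = 0.961), Fdx1 by 0.06 ± 0.67, Fdxr by 0.51 ± 0.73, Hsd3b1 by 1.03 ± 1.48 and Hsd3b6 by -1.46 ± 1.14. The later steps differed by 1.64 ± 0.75 for Cyp17a1 (limma, unadjusted p = 0.0649), 1.43 ± 0.58 for Hsd17b1 (unadjusted p = 0.0411, adjusted p = 0.910) and -0.0042 ± 0.58 for Srd5a1, none past the test. Limma called 0 of 19710 genes (0%) in this comparison, while 1042 had an unadjusted p under 0.05. The median difference was 0.03 over the 10 genes and 0.01 over all genes tested.

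P6 was compared with E16.5 within the other series. Hsd17b1 rose by 5.79 ± 0.58 on the log2 scale (limma, adjusted p = 0.0202), from 0 and 0.28 to 100.4 and 37.6 RPKM. It was the 1 gene of the 10 that passed, among 57 of 19710 genes called (0.289%), of which 40 were higher (0.203%) and 17 lower (0.0863%) at P6. The Hsd17b1 call ended without any 1 of the E11.5 and E13.5 captures (limma, adjusted p = 0.0597, 0.0613, 0.0613 and 0.0591), and with a mean of log2 values over cells the difference was 1.30 (adjusted p = 0.134). Cyp19a1 differed by 3.80 ± 0.53 and did not pass (limma, adjusted p = 0.0515). It passed with a pseudocount of 0.1 RPKM (limma, adjusted p = 0.0268), after rescaling (0.0246) and with no series term (0.0235). A filter met in at least 2 captures gave 0.0416. Without the first P6 capture it differed by 2.92 and without the second by 4.68, where the lone P6 capture is assumed to vary like the others. Cyp19a1 reached the filter of 1 RPKM only through the P6 captures, where it was high. Hsd3b1 differed by 2.89 ± 1.48 and did not pass (limma, adjusted p = 0.653), with P6 captures that differ between themselves by more than 3-fold. The entry and androgen steps had -1.61 ± 1.20 for Star, 0.15 ± 0.67 for Fdx1, -0.57 ± 0.73 for Fdxr, 0.91 ± 1.14 for Hsd3b6, 0.99 ± 0.75 for Cyp17a1 and 0.48 ± 0.58 for Srd5a1, none past the test. The median difference was 0.70 over the 10 genes and 0 over all genes tested.

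At P6 the cells were split by Inha, a granulosa gene, and Nr2f2, a nuclear receptor gene of stroma and theca. With 1 RPKM as the limit, 6 and 10 cells of the 2 captures had Inha only, 30 and 18 had both, 17 and 36 had Nr2f2 only, and 2 and 2 had neither. Cells with both genes were thus common, and whether some chambers held 2 cells was not tested. Hsd3b1 was expressed in 7 of 16 Inha-only cells, 36 of 48 cells with both, 7 of 53 Nr2f2-only cells and 1 of 4 cells with neither. Hsd17b1 was expressed in 3, 17, 0 and 0 of these cells, and Cyp19a1 in 1, 4, 0 and 0. Fdx1 was spread more evenly, in 4, 18, 11 and 1 cells, and Fdxr in 1, 10, 4 and 1 cells.

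**Figure D3:**
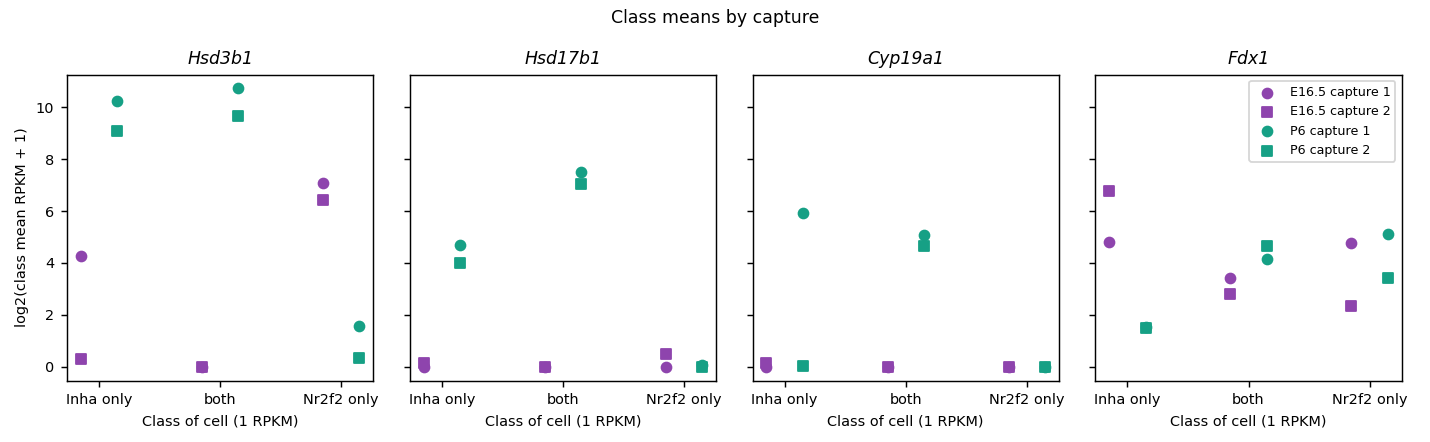
Class means of 4 genes as log2(mean RPKM + 1) in cells with Inha only, with both genes and with Nr2f2 only, 1 point per capture (circles for the first, squares for the second; purple for E16.5, green for P6). At P6 Hsd3b1 is high in both Inha classes and near 0 in Nr2f2-only cells, while at E16.5 it is higher in Nr2f2-only cells, and the E16.5 Inha-only points rest on 4 and 2 cells.

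Hsd3b1 had a mean of 1219.6 and 542 RPKM in the Inha-only cells of the P6 captures and of 1.99 and 0.25 RPKM in the Nr2f2-only cells. The classes did not overlap, and the cells with both genes lay with the Inha-only cells at 1695 and 812 RPKM. The difference was 8.72 ± 0.71 on the log2 scale (limma on class means of the E16.5 and P6 captures, adjusted p = 0.0119). In that fit 25 of 16125 genes were called (0.155%), of which 3 were higher (0.0186%) and 22 lower (0.136%) in the Inha class, and the median over all genes tested was -0.39. The filter on low values let 7 of the 10 genes into the test, and Hsd3b1 was the 1 called. With the capture as a block, which pairs both classes of a capture but leaves 1 residual degree of freedom, the call was lost (limma, adjusted p = 0.624) at the same difference, and 0 genes were called. It was also lost without each of the captures (limma, adjusted p from 0.235 without the first E16.5 capture to 0.284 without the first P6 capture, with 0.237 and 0.270 for the others), at differences of 8.67 to 8.77, and with a mean of log2 values over cells the difference was 4.10 (0.111). With no filter (0.110), at a class limit of 10 RPKM (0.221) and with any value above 0 as positive (0.0878) it was lost too, so that 2 of 11 alternatives kept it, the split by the higher gene aside.

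Hsd17b1 had 24.8 and 14.8 RPKM in Inha-only cells, 179 and 129.8 RPKM in cells with both genes and 0.034 and 0 RPKM in Nr2f2-only cells at P6. Its difference between the single-gene classes was 4.31 ± 0.90 and did not pass (limma, adjusted p = 0.144). Cyp19a1 had 60.4 and 0.015 RPKM in Inha-only cells, 33.2 and 24.2 RPKM in cells with both and 0 RPKM in Nr2f2-only cells, with a difference of 2.98 ± 1.75 (limma, adjusted p = 0.590). Hsd17b1 and Cyp19a1 reached the filter of 1 RPKM in this fit only through the P6 Inha-only class, where they were high. The carriers had differences below 0 that did not pass, with -2.20 ± 1.41 for Fdxr (limma, adjusted p = 0.598), and Srd5a1 had -1.27 ± 0.65 (0.503). Srd5a1 reached the filter of 1 RPKM only through the Nr2f2-only class of the second P6 capture. Its mean there was 2.87 RPKM, with 1 of 36 cells expressing it. At P6 it was expressed in 0 of 16 Inha-only and 2 of 53 Nr2f2-only cells, so its difference rests on few cells. Fdx1 had 1.91 and 1.80 RPKM in Inha-only cells and 34.04 and 9.59 RPKM in Nr2f2-only cells (-2.75 ± 1.14, limma, adjusted p = 0.393), but cells with both had 16.8 and 24.4 RPKM, and its sign turned when cells were split by which of Inha and Nr2f2 was higher (0.19).

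That other split, chosen after the data were seen, gives every cell with either gene a class and keeps at least 7 cells in each class of each capture. By it, Hsd3b1 at P6 had 2137 and 871 RPKM in the 27 and 23 Inha cells and 21.5 and 0.24 RPKM in the 28 and 42 Nr2f2 cells. The difference was 8.01 ± 1.40 and did not pass (limma, adjusted p = 0.0916, with 2 of 17358 genes called, 0.0115%), but passed with the capture as a block (adjusted p = 0.0205, 22 genes called, 0.127%). Hsd17b1 had 204 and 108.03 RPKM against 0.021 and 0 RPKM, a difference of 7.21 that passed with the block alone (limma, adjusted p = 0.0496 with it and 0.0548 without). Hsd17b1 reached the filter of 1 RPKM in this fit only through the P6 Inha class, where it was high.

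Within the P6 captures Hsd3b1 was highest in the cells with the most Inha. Bins of Inha level were set after the values were seen. Of cells with Inha under 1 RPKM, 5 of 19 and 3 of 38 expressed Hsd3b1, at means of 6.14 and 0.23 RPKM. At 1 to under 100 RPKM of Inha these were 4 of 6 and 1 of 8 cells, at means of 78.5 and 0.18 RPKM. At 100 to under 1000 RPKM they were 5 of 8 and 1 of 6 cells, at means of 212 and 0.34 RPKM. The second capture thus showed no rise below 1000 RPKM of Inha. At 1000 RPKM or more of Inha, Hsd3b1 was expressed in 21 of 22 cells (95.5%, exact 95% interval 77.2 to 99.9%) and 11 of 14 cells (78.6%, 49.2 to 95.3%), at means of 2546 and 1431 RPKM. Hsd17b1 was expressed in 13 of 22 and 6 of 14 of those highest cells, in 1 further cell of the second capture, and in 0 of the 25 and 46 cells with less than 100 RPKM of Inha. The highest bin also had the most detected genes, a median of 5451 against 4407 in the lowest bin of the first capture and 4562 against 3436 in the second, and the part of this in the shares was not tested.

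**Figure D4:**
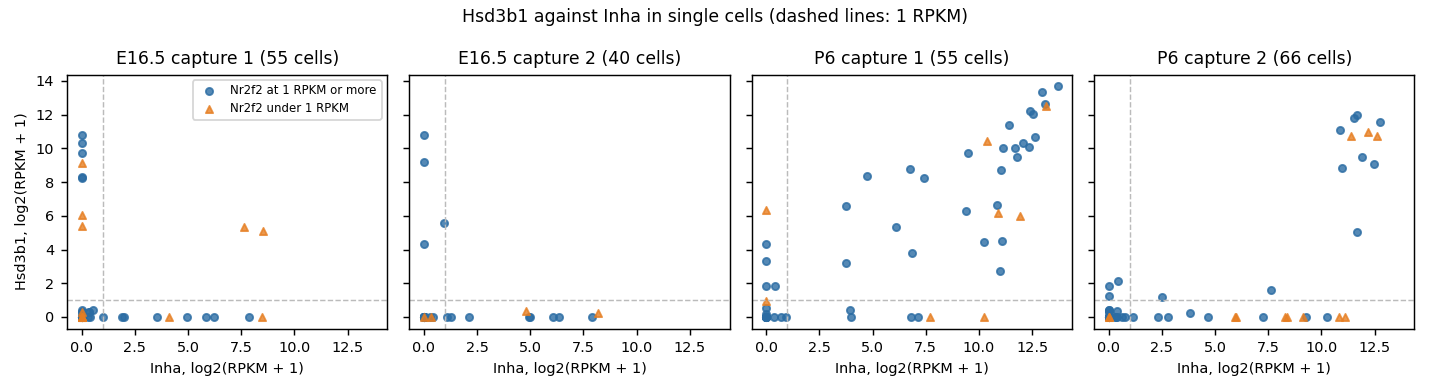
Hsd3b1 against Inha in each cell of the E16.5 and P6 captures, both as log2(RPKM + 1), with blue circles for cells at 1 RPKM or more of Nr2f2, orange triangles for the rest and dashed lines at 1 RPKM. At P6 most Hsd3b1 cells lie at high Inha (30 of 35 and 13 of 16 have Inha), while at E16.5 most lie at an Inha of 0 (2 of 10 and 0 of 4 have it).

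The P6 cells with Hsd3b1 carried other granulosa genes, and each of the 14 granulosa markers was expressed in a larger share of them than of the other cells. Of the 51, Inhbb, the inhibin beta B chain, was expressed in 24, against 3 of the 70 other cells, the granulosa hormone gene Amh in 20 against 2, Nr5a2, a nuclear receptor gene of the granulosa, in 29 against 15, and Fst, the activin binder, in 26 against 10. For Foxl2, the granulosa transcription factor gene, the gap was small, with 34 of 51 against 41 of 70 and means of 25.06 and 25.01 RPKM, and the means of the Hsd3b1 cells were higher in the first capture (28.1 against 16.2 RPKM) and lower in the second (18.4 against 28.5 RPKM). Dcn, a stromal proteoglycan gene, was expressed in 16 against 53. The 14 granulosa markers summed to a median of 5176 RPKM per cell against 451, and the 14 stroma markers to 50.2 against 3171. The Hsd3b1 cells had a median of 4830 detected genes against 3840.5, and its part in these shares was not tested. The 20 Hsd17b1 cells all expressed Inha, and 19 expressed Hsd3b1, 15 Fst, 15 Nr5a2 and 12 Amh, against 44, 32, 21, 29 and 10 of the other P6 cells. The 5 Cyp19a1 cells all expressed Inha and Hsd3b1, at 2.04 to 10260 RPKM of Hsd3b1. Cells with Hsd17b1 had a median of 5558.5 detected genes against 3967 in the others.

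At E16.5 most of the 14 cells with Hsd3b1 were Nr2f2-only, as were most cells of that age. Hsd3b1 was expressed in 2 of 6 Inha-only cells, 9 of 62 Nr2f2-only cells, 3 of 11 cells with neither and 0 of 16 cells with both. Inha was expressed in 2 of 10 and 0 of 4 of them in the 2 captures, against 10 of 45 and 10 of 36 of the rest. At E13.5 the shares were 9 of 11 and 3 of 4, against 15 of 42 and 21 of 49, and at P6 30 of 35 and 13 of 16, against 6 of 20 and 15 of 50. The cells with Hsd3b1 thus had Inha in most cases at E13.5 and P6 and in few at E16.5.

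The markers of each list were uneven in the E16.5 cells with Hsd3b1. Of the 14 granulosa markers, 5 were expressed in a larger share of them than of the 81 other cells, 6 in a smaller share, and 3 (Amh, Nr5a2 and Fshr) in no cell of either. The 5 were Fst in 12 of 14 against 22 of 81, Kctd14 in 14 against 47, Amhr2, the receptor gene for Amh, in 13 against 47, Gja1, a gap junction gene, in 12 against 59, and Foxl2 in 6 against 17. The 6 included Inha in 2 against 20, Slc18a2 in 0 against 12, Serpine2 in 1 against 17 and Inhbb in 0 against 4. Of the 8 surface epithelium markers, 3 had a larger share, led by Lgr5 in 10 against 32, and 4 a smaller one, such as Upk3b in 0 against 16 and Krt18 in 2 against 29. Of the 10 theca and Leydig markers, 4 had a larger share, among them Thbs2 in 9 against 26 and Aldh1a1 in 10 against 25, and 4 a smaller one, such as Ptch1 in 3 against 24 and Gli1 in 0 against 4. Insl3 and Hsd17b3, which define Leydig cells, were at 0 in every E16.5 and P6 cell. Dcn was expressed in 4 of 14 against 41 of 81. Nr2f2 was expressed in 9 of 14 but was low, at a mean of 13.7 and 6.69 RPKM in the Hsd3b1 cells of both captures against 97.6 and 146.1 RPKM in the rest. The 10 theca and Leydig markers summed to a median of 213 RPKM in the Hsd3b1 cells against 6.51 in the rest, the granulosa markers to 1214 against 678 and the stroma markers to 60.2 against 499. The median number of detected genes was 5326 against 4699, and its part in these shares was not tested.

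For the class means at E16.5, the 1 RPKM rule left 4 and 2 Inha-only cells, too few to fit, so the split by the higher gene was used. Hsd3b1 then had 9.18 and 0.063 RPKM in the 8 and 7 Inha cells and 125.2 and 74.9 RPKM in the 41 and 32 Nr2f2 cells. These means rest on few cells, since 2 and 0 of the Inha cells and 7 and 4 of the Nr2f2 cells expressed Hsd3b1, every class median was 0, and 1 cell gave 72.6% of all Hsd3b1 in the second capture. The difference was -4.89 ± 1.40 (limma, adjusted p = 0.381), with 1 of 17358 genes called (0.00576%). Over the alternatives it ran from -6.30 to -0.08, the last at a class limit of 10 RPKM. The difference between classes was -3.63 and -6.16 in the E16.5 captures and 6.57 and 9.46 in the P6 captures, opposite in sign in all captures. The change of that difference was 12.91 ± 1.98 (limma, unadjusted p = 0.000133, adjusted p = 0.332), where 0 of 17358 genes passed (0%) and 1220 had an unadjusted p under 0.05. With the capture as a block it passed (limma, adjusted p = 0.0269) as 1 of 17358 genes (0.00576%). With means of log2 values it was 6.36, and the median of this change over all genes tested was 0.30.

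Each class was also followed from E16.5 to P6. In the Inha class of the same split, Hsd17b1 rose by 7.20 ± 0.87 (limma, adjusted p = 0.0280), among 14 of 17358 genes called (0.0807%), of which 8 were higher (0.0461%) and 6 lower (0.0346%). Hsd17b1 reached the filter on low values only through the P6 Inha class, where it was high, and the call ended with no filter (0.0580). It also ended after rescaling (0.0575), at a class limit of 10 RPKM (0.0880) and without the first E16.5 capture (limma, adjusted p = 0.112), the second (0.0789) or the first P6 capture (0.0513), so that 3 of 9 alternatives kept it. Hsd3b1 differed by 8.70 ± 1.40 (limma, adjusted p = 0.0642) and Cyp19a1 by 4.98 ± 0.83 (limma, adjusted p = 0.0664), and neither passed. Cyp19a1 too reached the filter only through the P6 Inha class. In the Nr2f2 class under the 1 RPKM rule, Hsd3b1 had 132.9 and 85.6 RPKM at E16.5 and 1.99 and 0.25 RPKM at P6, with no overlap. The E16.5 means came from 5 of 34 and 4 of 28 cells, at up to 1762 and 1742 RPKM, and both medians were 0. That difference was -5.80 ± 0.71 (limma, unadjusted p = 8.35e-05, adjusted p = 0.655), where 0 of 16125 genes passed (0%) and 948 had an unadjusted p under 0.05. It was -0.81 with means of log2 values over cells.

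**Figure D5:**
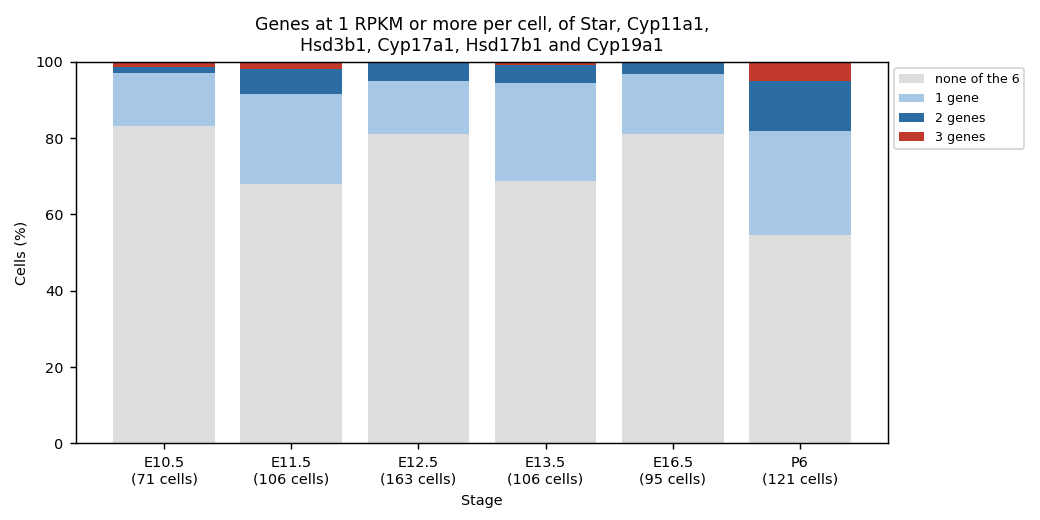
Share of cells at each age that express 0, 1, 2 or 3 of the genes Star, Cyp11a1, Hsd3b1, Cyp17a1, Hsd17b1 and Cyp19a1 at 1 RPKM or more. No cell has more than 3, and P6 has the most cells with at least 2 (22 of 121).

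No single cell held the whole route. A cell with Star, Cyp11a1, Hsd3b1 and Cyp17a1 together was found at no age, at thresholds of 1 RPKM, 10 RPKM or any value above 0, which allows shares of up to 4.23%, 2.83%, 1.84%, 2.83%, 3.16% and 2.48% from E10.5 to P6. Cyp17a1 was expressed in only 5 of 662 cells, and in no cell at E10.5, E11.5 or E16.5. These counts therefore restate its rarity and do not test whether the genes are expressed together. Of these 4 genes, 3 were in 1 cell at E10.5, 2 cells at E11.5 and 1 cell at E13.5, in each case Star, Cyp11a1 and Hsd3b1. At E12.5, E16.5 and P6, 0 cells had 3 of them. With Hsd17b1 and Cyp19a1 counted as well, at least 1 of the 6 was expressed in 12, 34, 31, 33, 18 and 55 cells from E10.5 to P6, and at least 2 in 2, 9, 8, 6, 3 and 22 cells. The E12.5 counts and limit include the second E12.5 capture, which goes against its label and has low depth. Few or no reads of a gene in a cell do not show its absence, since a single cell's RNA is captured in part.

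The combinations found were not the same at each age. At E11.5, 5 cells had Star with Cyp11a1, 2 cells had these and Hsd3b1, and 2 had Star with Hsd3b1. At P6, 13 cells had Hsd3b1 with Hsd17b1, 3 had these and Cyp19a1, 3 had these and Star, 2 had Hsd3b1 with Cyp19a1 and 1 had Star with Hsd3b1. Hsd17b1 cells at P6 expressed Hsd3b1 in 13 of 13 and 6 of 7 cases. On the log2 scale across cells of 1 capture, Hsd3b1 correlated with Hsd17b1 at r = 0.50 (n = 55) and 0.64 (n = 66), with Inha at 0.79 and 0.73, and with Nr2f2 at -0.32 and -0.40. Cells of 1 capture share its chip and reagents and differ in depth, so these describe the captures only.

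Across the 9407 genes expressed in at least 5 cells of each P6 capture, those most like Hsd3b1 (mean Pearson r over both captures, log2 scale, 55 and 66 cells) were Inha at 0.76, Inhbb at 0.69 and Dpf3 at 0.68. Most like Hsd17b1 were Aif1l at 0.60, Tnni3 at 0.60 and Bex4 at 0.59. Fdx1 was most like Pbk at 0.50, Cdca8 at 0.43 and Kdm1a at 0.43, and Fdxr was most like Plekhm2 at 0.46, Dlst at 0.43 and Ube2m at 0.39. The values for the carriers differed between captures, for example 0.71 and 0.22 for Fdxr with Plekhm2, against 0.79 and 0.73 for Hsd3b1 with Inha.

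Other genes of the pathway were taken from 3 lists. Of 24 regulators tested out of 25, 3 rose from E16.5 to P6 and 0 fell, against 0.289% of all genes called. The lists were chosen with earlier results of these data known, so this share does not test whether regulators changed more than other genes. Nr5a2, a relative of Nr5a1 that acts in granulosa cells, had at most 0.24 RPKM before P6 and 12.8 and 9.47 RPKM at P6 (3.59 ± 0.28 on the log2 scale, limma, adjusted p = 0.0110). Esr2, the estrogen receptor beta gene, went from 1.26 and 1.57 to 20.1 and 25.9 RPKM (3.30 ± 0.37, limma, adjusted p = 0.0275). Ptch1, the hedgehog receptor gene, went from 4.09 and 1.07 to 44.999 and 44.5 RPKM (3.82 ± 0.48, limma, adjusted p = 0.0406). Nr5a2 passed under every alternative tried, but it reached the filter of 1 RPKM only through the P6 captures, where it was high. Esr2 did not pass when either E11.5 capture was left out (limma, adjusted p = 0.0630 and 0.0620) or either E13.5 capture (0.0734 and 0.0668), nor with a pseudocount of 0.1 RPKM (0.171). Ptch1 did not pass when any 1 capture of E11.5, the first 2 of E12.5, any of E13.5 or any of P6 was left out (limma, adjusted p from 0.0537 to 0.106). It also missed the threshold with that pseudocount (0.0505) and after each cell was rescaled to a fixed sum (0.0517). Over all alternatives the difference ran from 1.56 to 6.76 for Nr5a2, from 1.72 to 3.92 for Esr2 and from 2.56 to 4.47 for Ptch1. The same 3 were those called over the 6 ages. Of the other steroid enzymes and redox partners, 0 of 17 tested out of 25 passed in this comparison, with a median of -0.08, and of the 15 genes of cholesterol supply 0 of 15, with a median of -0.06, against 0 over all genes and 0.68 over the regulators. Between E13.5 and E11.5 none of the 3 lists had a called gene, and at P6 the 1 called regulator between the classes was Nr2f2, which defines them.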

How the data were processed

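RNA of single cells was made into cDNA on small C1 chips with SMARTer chemistry and into libraries with Nextera XT, and read as pairs of 100 bp, per the labels' protocols. The deposited table holds values that the authors scaled to RPKM, as inferred from low values that are whole multiples of what 1 read is worth (a median of 72.4% of those up to 6.5 reads, within a tolerance of 0.02), since the file names no unit. The genome build was GRCm38.p3 (mm10), per the submitters' processing notes. Not given in the sources used here are the aligner, the counting tool and whether it used strand.

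Of 663 deposited libraries, 1 repeat of a cell (r = 0.996) was averaged with its pair, which left 662 cells, and 27 of 43347 gene names that had turned into dates were dropped. The replicate was the capture named in the titles. For the embryonic ages after E10.5 the series' text gives 2 captures each, and the third E12.5 capture is known from titles alone. No cell was removed and no doublet caller was run. Depth per cell was estimated from the low values, and intervals and limits for counts of 0 (3 cells of the total) cover counting error only.

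Capture means and class means were tested on log2(mean RPKM + 1) with limma 3.58.1 (R 4.3.3, trend), with Benjamini-Hochberg adjustment over all genes at 1 RPKM or more in at least 1 value and a threshold of 0.05. Such a fold change understates that of low genes. The fit of ages had the sequencing series as a covariate and 5 residual degrees of freedom. Class means of under 5 cells were not used. Both classes of a capture come from the same chip run, so the capture block pairs them. The fits were also run on simulated data, and no outcome of those runs is given or relied on here. Alternatives were another pseudocount (0.1 RPKM), no filter, means of log2 values, rescaling each cell to a fixed sum, no series term, other class limits, the block and leaving out each capture. Positions are from GENCODE vM21 and sequences from RefSeq. Descriptions used Python 3.11.15 with numpy 2.4.6, pandas 2.3.3 and scipy 1.17.1.

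The members and lists were chosen with earlier results of these data known. By the rule for named genes, all 10 were described in every capture, a fitted difference was considered for genes at 1 RPKM or more in a value compared, up to 3 called genes of each pathway list were named, and the 3 genes most like each gene expressed in at least 5 cells of each P6 capture. Genes described beside cells that express a member were chosen after their values were seen.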

Additional observations from a re-analysis of the deposited data

Results flagged for a closer look

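The Hsd3b1 difference between Inha cells and Nr2f2 cells had opposite signs at E16.5 and P6 in all 4 captures, when cells were split by which gene was higher. It was -3.63 and -6.16 on the log2 scale at E16.5 and 6.57 and 9.46 at P6, a change of 12.91 ± 1.98 that did not pass over all genes (limma, adjusted p = 0.332) and passed with the capture as a block (0.0269). That split was chosen after the data were seen. The E16.5 means of the Nr2f2 cells rest on 7 of 41 and 4 of 32 cells with Hsd3b1, and those of the Inha cells on 2 of 8 and 0 of 7. With means of log2 values over cells the change was 6.36, and at a class limit of 10 RPKM the E16.5 difference was -0.08.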

How the results depend on the processing

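The share of tested genes that limma called moved with the settings. Over the 6 ages it was 1.37%, and 5.59% with no filter, 2.48% with means of log2 values, 3.32% after rescaling and 0.0889% with a filter met in at least 2 captures. For E13.5 against E11.5 it was 0%, and 0.178%, 0.0304% and 0.0930% under the first 3 of these, and for P6 against E16.5 it was 0.289%, and 0.378% with no filter and 0.649% with means of log2 values. Between the classes at P6 it was 0.155%, and 0% with no filter, 0% with the capture block, 0.0115% with the split by the higher gene, 0.0240% at 10 RPKM and 0.0514% with any value above 0. For the Nr2f2 class from E16.5 to P6 it was 0%, and 0.00576% with that split. Between the classes at E16.5 it was 0.00576%, and 0.0288% with a pseudocount of 0.1 RPKM, 0.147% with no filter and 0% with means of log2 values, with the block pairing or at 10 RPKM. The change of the class difference had 0%, and 0.00576% with the block, and the Inha class had 0.0807%, and 0.242% with the other pseudocount, 1.05% with means of log2 values and 0% at 10 RPKM. Leaving out 1 capture gave 0.00514 to 7.25% over the ages, 0 to 1.12% for E13.5 against E11.5, 0.0974 to 1.89% for P6 against E16.5, 0% between the classes at P6, 0 to 5.91% for the Nr2f2 class, 0 to 4.47% between the classes at E16.5, 0 to 4.81% for the change of the class difference and 0 to 3.03% for the Inha class. The 0% between the classes at P6 is for the 1 RPKM rule, and it does not hold for the split by the higher gene. The cause of these moves was not tested. With the block, where it could be fitted, Hsd3b1 lost its call at P6 under the 1 RPKM rule (limma, adjusted p = 0.624) and passed under the other split (0.0205).

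Signs turned for genes with no call. For E13.5 against E11.5, Srd5a1 was 0.030 with the other pseudocount and 0.0058 after rescaling. With means of log2 values, Fdx1 was -0.0046 for P6 against E16.5, Fdxr -0.42 in the Nr2f2 class and Srd5a1 0.037 for the change of the class difference. Between the classes at P6, Fdx1 was 0.19 with the split by the higher gene and Fdxr 0.96 with any value above 0, which gave Fdxr -1.71 in the Nr2f2 class. At 10 RPKM Fdxr was -2.67 between the classes at E16.5, 2.03 for the change of the class difference and 2.62 in the Inha class. Leaving out 1 capture spread E13.5 against E11.5 from -0.89 to 1.01 for Fdx1, from -0.47 to 2.54 for Hsd3b1 and from -0.45 to 0.44 for Srd5a1. It spread P6 against E16.5 from -0.38 to 0.67 for Fdx1, from -1.22 to 0.085 for Fdxr, from -0.0065 to 1.98 for Cyp17a1 and from -0.088 to 1.05 for Srd5a1. Between the classes at P6 Fdxr spread from -4.76 to 0.35, and in the Nr2f2 class Fdx1 from -0.52 to 1.91 and Fdxr from -1.37 to 2.04. Between the classes at E16.5 Star spread from -2.71 to 5.16 and Fdxr from -1.14 to 3.01. The change of the class difference spread from -5.13 to 2.74 for Star, from -2.90 to 0.13 for Fdx1 and from -3.82 to 0.32 for Fdxr, and the Inha class from -4.26 to 0.98 for Star. Beside the 12 reversals listed by setting, 323 of the members' fitted values kept sign and side of the threshold, 13 became weaker and 13 stronger.

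Rescaling moved the median of all genes between the classes from -0.39 to -0.50 at P6 and from -0.24 to -0.35 at E16.5, and that of the change of the class difference from 0.30 to 0.42. The fit of ages without the third E12.5 capture was not run, because the sequencing series could then not be estimated. With 1 to 3 captures an age, few residual degrees of freedom limit each adjusted p-value. Genes under about 1 RPKM rest on few reads per cell.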
